A study of Mus musculus with 2 samples.

Results

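Mesothelial-like cells were the cells of the peritoneal tumor tissue that held at least 2 UMIs (unique molecular identifiers, each standing for 1 captured transcript) of Msln, Upk3b and Lrrn4 in sum. They also held at most 1 UMI of Ptprc, the pan-leukocyte gene CD45, and under 10 UMIs of Dlk1, Hmga2 and Cdkn2a, genes that marked the cancer-like cells of these libraries. In all, 77 of 15156 kept cells met this rule, 47 of 8770 in the control IgG library and 30 of 6386 in the library labelled for the Activin A neutralizing antibody. Because the cells were selected on these 7 genes, the levels of those genes are given as a description.

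Both libraries were made from female C57BL/6 mice of 6 to 8 weeks whose peritoneal wall had been abraded and which had received p53-/-, myc, Hras ovarian cancer cells of their own strain into the peritoneal cavity. Daily antibody or IgG injections began the day after the cancer cells. By the labels, 7 mice had IgG and 8 mice had antibody for 10 days, and tumor tissue from the abraded site was pooled within each group, so each group was 1 droplet library without replicates. The comparison asked what neutralizing Activin A, a ligand of the TGFβ family, does to the cells of the tumor. No test between groups was made, and an effect of the antibody cannot be told apart from unequal pooling, dissociation or sequencing. Sequencing gave 98174850 UMIs with control IgG and 74117462 with the antibody.

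Mesothelium is the flat epithelium that lines the peritoneal cavity. It carries keratins and mesothelin like an epithelium but comes from mesoderm, keeps Wt1 on, and secretes hyaluronan, lubricants, complement and protease inhibitors onto the serosal surface. When the serosa is injured or exposed to ligands of the TGFβ family, mesothelial cells can lose keratins and junctions and take up contractile and matrix genes, a process called mesothelial-to-mesenchymal transition, and in mice they have been described as a source of fibroblasts in peritoneal tumors.

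Msln encodes mesothelin, a surface glycoprotein that can bind MUC16. Expression over a group of cells is given as CPM (counts scaled to the same total), from the UMIs of a gene over all UMIs of those cells in a library. Msln was at 340 CPM in the control IgG cells (440 UMIs in 39 of 47 cells) and 305 CPM in the antibody cells (302 UMIs in 22 of 30 cells). Upk3b, a uroplakin, was at 201 and 247 CPM, and Lrrn4, a leucine-rich repeat membrane protein, at 224 and 307 CPM. For comparison, a Msln UMI was seen in 0.211% of 7576 control IgG immune cells and 0.0744% of 5376 antibody immune cells, a cell type that should lack it, at median depths of 5608.5 and 4414.5 UMIs. The median depths of the mesothelial-like cells were 26022 and 32671.5 UMIs. All 3 genes were detected together in 44 of the 77 cells.

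The keratins were not used to select the cells and bear on the name. Krt19 was detected in 40 of 47 control IgG cells at 580 CPM and in 27 of 30 antibody cells at 545 CPM. Krt7 was detected in 31 and 24 cells, at 348 and 475 CPM. A UMI of Krt7 was seen in 0.528% and 0.205% of immune cells, and in cancer-like cells Krt7 was at 0.123 and 0.0538 CPM. At least 5 UMIs of the simple-epithelial keratins Krt7, Krt8, Krt18 and Krt19 were found in 67 of the 77 cells, 41 and 26 by library, and none in 3 cells. Wt1, the transcription factor of the coelomic lining, was detected in 76 of the 77 cells, at 258 CPM with control IgG and 282 CPM with the antibody. It was also detected in 35 of 39 and 10 of 13 contractile fibroblasts, at 175 and 189 CPM, and in 77.7% and 76.7% of cancer-like cells, at 72.9 and 72.8 CPM, so a Wt1 UMI did not set the cells apart from these. Krt7, in contrast, was detected in 0 of 39 and 1 of 13 contractile fibroblasts and Krt19 in 6 of 39 and 2 of 13. Krt8 was found in 17 of 39 and 4 of 13 of them, against 44 of 47 and 26 of 30 mesothelial-like cells, and Slpi, a secreted protease inhibitor, in 26 of 39 and 5 of 13, so these were shared in part. Of 20 mesothelial surface and identity genes, 18 were counted in these cells, while Krt5 and Calb2 had no UMI. Krt19 was also found in 57 of 292 and 57 of 343 cancer-like cells. Krt7 therefore went with the name for most cells. Near the limit of the rule this did not hold: of 22 cells with 2 to 5 UMIs of the selecting genes, 5 had Krt7 and 14 had Krt19. Of the 9 with exactly 2 UMIs, 9 had Wt1 and Nkain4, 2 had Krt7 and 6 had Krt19. Of 12 cells that met the other limits but had 1 UMI and so fell outside, 9 had Wt1, 3 had Nkain4, 0 had Krt7 and 1 had Krt19.

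**Figure D1:**
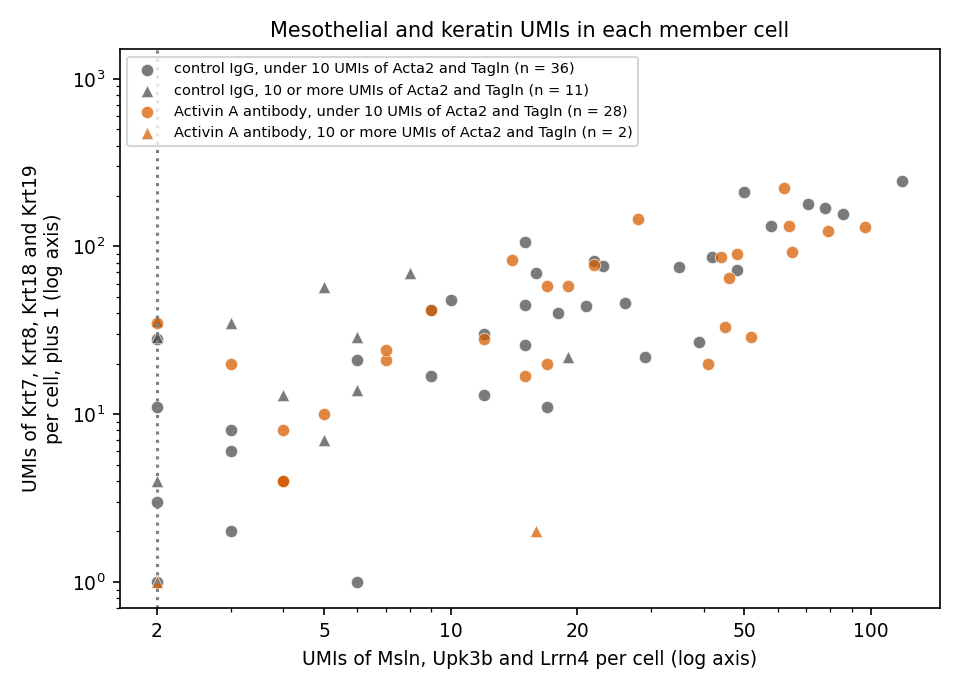
UMIs of the 3 selecting genes (x axis, log scale) against UMIs of 4 keratins plus 1 (y axis, log scale) in each of the 77 mesothelial-like cells, gray for control IgG and orange for the antibody, with triangles for cells that held 10 or more UMIs of Acta2 and Tagln. The dotted line is the limit of 2 UMIs; cells with many selecting UMIs also have many keratin UMIs, and most of the 13 triangles lie at 8 or fewer selecting UMIs.

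Mesothelial-like cells made up 0.536% of kept cells with control IgG (95% exact Clopper-Pearson interval 0.394 to 0.712) and 0.470% with the antibody (0.317 to 0.670). On the log2 scale the shares differed by -0.19 (-0.90 to 0.50). This interval is of counting error over cells, and with 1 library per group a difference between groups was not tested. Fibroblasts were defined as cells with 10 or more UMIs of Col1a1, Col1a2 and Dcn that met the Ptprc and cancer limits and had under 2 UMIs of the selecting genes. Among mesothelial-like cells and fibroblasts together, the mesothelial-like share was 47 of 213 cells (22.1%, 16.7 to 28.2) with control IgG and 30 of 236 cells (12.7%, 8.74 to 17.6) with the antibody. This log2 ratio was -0.80 (-1.51 to -0.10). Fibroblasts under 10 UMIs of Acta2 and Tagln numbered 127 and 193, and contractile fibroblasts, with 10 or more, numbered 39 and 13. All intervals here are for counting error and hold nothing of the spread between mice.

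Mesothelial-like cells were deeper than most kept cells, which were immune cells, but not than all classes. They ranged from 4917 to 62624 UMIs with control IgG and from 11301 to 62067 with the antibody, and had medians of 5263 and 6014.5 genes. Over all kept cells the median was 5719 and 4660 UMIs, in contractile fibroblasts 23835 and 23317, and in cancer-like cells 55120.5 and 55124. Mitochondrial transcripts took a median of 2.62% and 2.23% of their UMIs. Doublets were not removed and no doublet caller was run. Of 98 kept cells with at least 2 UMIs of the 3 genes, 20 were left out by the Ptprc limit and 1 by the cancer limit alone. No mesothelial-like barcode was shared between the libraries, and 1 of the 77 was also the barcode of a kept cell of the other library.

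Beside fibroblasts, mesothelial-like cells stood out by keratins, the uroplakin Upk1b and the protease inhibitor Slpi, among other genes. Fold differences here are ratios of CPM plus 10, control IgG first, and the genes are those highest in both libraries. Krt7 was 34.4-fold and 30.3-fold higher than in all fibroblasts, and Krt19 30.1-fold and 15.9-fold higher. Slpi was at 5237 and 5756 CPM against 186 and 301 CPM in fibroblasts. Upk1b, another uroplakin, was 23.9-fold and 17.0-fold higher, and Pkhd1l1, a large fibrocystin-like membrane protein, 20.4-fold and 24.5-fold higher. Krt8, Krt14, Krt18, Gpm6a, Lgals7, Nkain4 and Spint2 completed the 12 genes. These are differences between classes of cells that were defined by the same counts, and no test was made.

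The genes lowest against fibroblasts were fibroblast genes. Pi16, a marker of adventitial fibroblasts, had 1 UMI-bearing cell with control IgG and 0 with the antibody among the mesothelial-like cells, against 476 and 411 CPM in fibroblasts. Postn, periostin, was at 2.31 and 3.03 CPM against 834 and 1226 CPM. Ebf1, a transcription factor of mesenchymal and B lineages, was at 1.54 CPM and 0, against 871 and 985 CPM. Myoc, Cilp, Opcml and Apod had 0 UMIs in all 77 cells. Sfrp4, Lama2, Ly6c1, Dpt and Plpp3 were the others, and of these Dpt was uneven, at 1.54 CPM in 2 cells with control IgG and 37.4 CPM in 7 cells with the antibody. In contrast, general mesenchymal genes were shared: all 77 cells had UMIs of Col1a1, Col3a1 and Dcn, and the fewest UMIs of Col1a1, Col1a2 and Dcn in a cell was 41 with control IgG and 151 with the antibody. Dcn, the small proteoglycan decorin, was at 3906 and 4740 CPM, compared to 9274 and 9383 CPM in the less contractile fibroblasts. Pdgfra, a receptor used to mark fibroblasts, was at 112 and 107 CPM in mesothelial-like cells.

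Against all other kept cells, the list added secreted and stress proteins. Ptgis, prostacyclin synthase, was 33.5-fold and 34.1-fold higher and was found in all 77 cells. Dmkn, dermokine, was 34.0-fold and 31.1-fold higher. Hspb1, a small heat shock protein, was at 1290 and 1262 CPM against 41.0 and 51.9 CPM, and Clu, the chaperone clusterin, at 1542 and 1479 CPM against 68.0 and 68.9 CPM. Krt7, Krt8, Krt19, Slpi, Upk1b, Nkain4, Smim1 and Pkhd1l1 were the other 8. The 12 lowest genes were leukocyte and osteopontin transcripts, among them Dock2, Arhgap15, Cd52, Lcp1, Srgn, Lyz2, Ccl5 and Spp1.

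**Figure D2:**
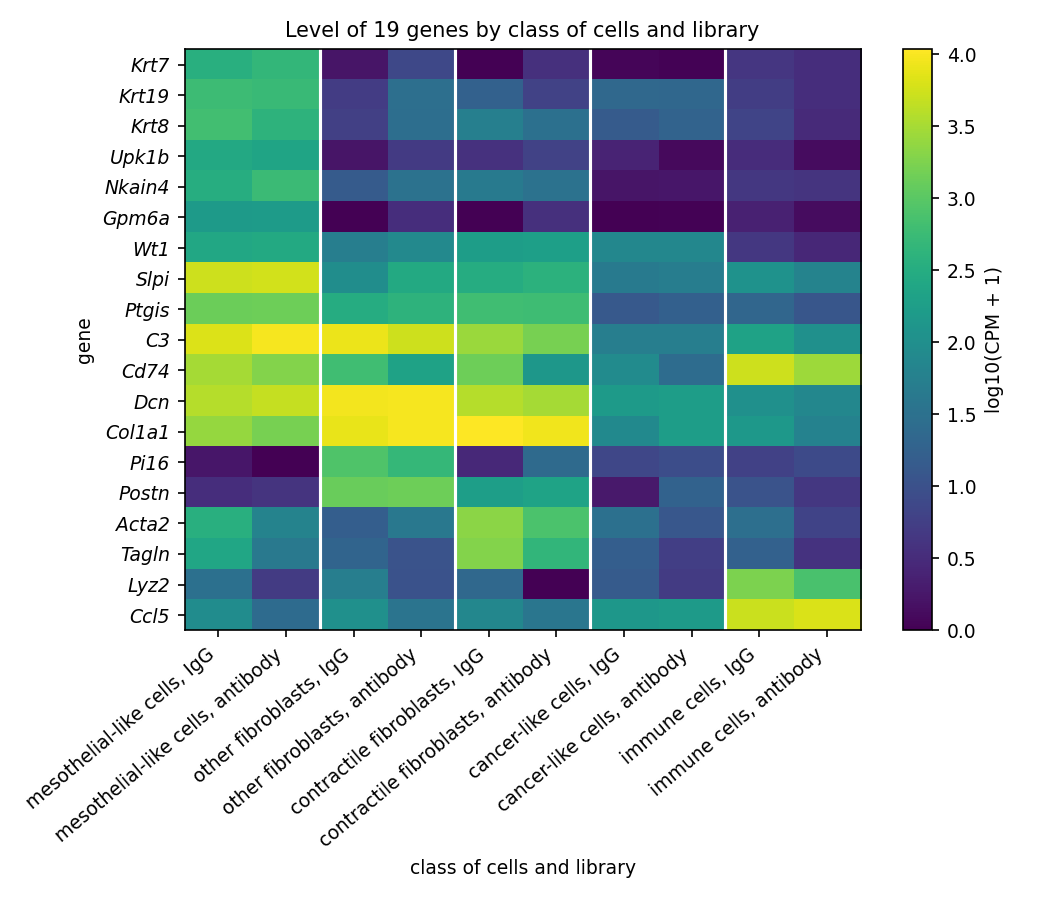
Level of 19 genes (rows, color scale log10 of CPM plus 1) in mesothelial-like cells, fibroblasts, contractile fibroblasts, cancer-like cells and immune cells of each library (columns). Keratins, Upk1b, Gpm6a and Slpi are brightest in mesothelial-like cells, Pi16 and Postn in fibroblasts, and Cd74 is bright in both mesothelial-like and immune cells; Acta2 and Tagln are brighter in the control IgG columns of the mesothelial-like cells and contractile fibroblasts.

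Mesothelial-like cells varied widely in the number of selecting UMIs. The ranges used next are drawn from the counts that selected the cells and are a description. The 28 cells with 20 or more selecting UMIs all had Krt7, Krt19 and Upk1b, and 23 had Muc16, the CA125 mucin. The 27 cells with 6 to 19 selecting UMIs had Krt7 in 22 and Muc16 in 5. The 22 cells with 2 to 5 had Krt7 in 5, Krt19 in 14 and Muc16 in 0, although all 22 had Wt1 and Nkain4. Depth over these ranges, from the highest to the lowest, had medians of 23812, 24484 and 28086 UMIs with control IgG and 32009, 35738.5 and 22974 UMIs with the antibody, so it did not run the same way in both libraries. In the same order Slpi was at 6826, 6675 and 2325 CPM with control IgG and 7509, 5282 and 2450 CPM with the antibody. C3, the central complement component, was at 8442, 7305 and 4207 CPM and at 14483, 6105 and 5513 CPM. Both genes were thus lowest in the cells with 2 to 5 selecting UMIs, in each library. Col1a1 was highest there, at 1581, 2015 and 3682 CPM with control IgG and 1071, 1705 and 2789 CPM with the antibody. Acta2, smooth muscle actin, was at 76.01, 281 and 654 CPM with control IgG, but at 44.3, 51.4 and 140.02 CPM with the antibody. Tagln, transgelin, was at 2.53, 98.01 and 606 CPM with control IgG and at 2.33, 0 and 233 CPM with the antibody, so the levels of these contractile genes in the lower ranges were mostly those of the control IgG library. Over cells, the shares of UMIs from the 4 keratins and from collagens (with Dcn) had a Spearman correlation of -0.43 over 47 control IgG cells and -0.57 over 30 antibody cells, and keratins and Acta2 plus Tagln at -0.39 and -0.27. These describe cells of the same library and share its depth and the same UMI totals.

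Contractile mesothelial-like cells, with 10 or more UMIs of Acta2 and Tagln, numbered 11 of the 47 control IgG cells and 2 of the 30 antibody cells. The 2 antibody cells had Wt1, Upk3b and Lrrn4, but 0 UMIs of Krt7, Krt18, Krt19 and Msln and 1 UMI of Krt8. Keratins thus did not go with the name for these 2 cells. The cell of these with 2 selecting UMIs had 0 keratin UMIs and 37 Tagln UMIs, and the other had 16 selecting UMIs. In the 11 control IgG cells, Acta2 was at 882 CPM, Tagln at 735 CPM, Krt7 at 50.7 CPM and Krt19 at 140 CPM, and Wt1 at 198 CPM. In the 36 control IgG cells below that limit, Acta2 was at 94.1 CPM, Tagln at 11.3 CPM, Krt7 at 487 CPM, Krt19 at 786 CPM and Wt1 at 287 CPM. The limit is a count and deeper cells reach it more easily. Median depth was 38024 UMIs in the 11 and 23866 in the 36 control IgG cells, and 33203.5 in the 2 and 32671.5 in the 28 antibody cells. The split is a cut through a range: 11 control IgG and 3 antibody cells lay between 5 and 14 of these UMIs, and 13 cells of each library had none.

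Transcripts of other cell types were also found in mesothelial-like cells, and the direction between libraries differed by list. Macrophage, T and NK, B (4 and 1 UMIs), dendritic, endothelial and muscle sums were higher with control IgG. Neutrophil (4 and 6 UMIs, 3.09 and 6.07 CPM) and mural sums (24 and 31 UMIs, 18.5 and 31.4 CPM) were higher with the antibody. So was the adipocyte sum (10 and 28 UMIs, 7.72 and 28.3 CPM). The B and neutrophil sums hold too few UMIs to give a direction. In free RNA the neutrophil sum was at 139 and 801 CPM. The cancer-like sum was at 427 and 580 CPM, of which Lgals7, also among the genes that set mesothelial-like cells apart from fibroblasts, made up 398 and 550 CPM; the next gene, Mid1, was at 25.5 and 26.3 CPM. A list of 11 macrophage genes summed to 151 CPM with control IgG and 60.7 CPM with the antibody, with Cd14 at 24.7 and 26.3 CPM, Lyz2, lysozyme, at 29.3 and 4.04 CPM and C1qa at 3.09 CPM and 0. The 10 T and NK genes summed to 82.6 and 20.2 CPM, with Trbc2 leading by UMIs and Cd4 at 0. The 9 endothelial genes summed to 78.7 and 19.2 CPM, mostly Kdr, while Emcn, Cldn5, Mmrn1 and Tie1 had 0 UMIs. The 5 dendritic genes summed to 15.4 CPM and 0, with 18 Cd209a UMIs in 1 cell and Flt3, Ccr7 and Xcr1 at 0, and the 9 skeletal muscle genes to 23.2 and 13.1 CPM, led by Acta1 with control IgG (7.72 and 1.01 CPM) and by Mylpf with the antibody (3.86 and 7.08 CPM), and Pvalb at 0. Per cell, macrophage, neutrophil, T and NK, B, dendritic, endothelial and muscle genes together gave a median of 6 UMIs (1 to 77) with control IgG and 3.5 (1 to 9) with the antibody. In barcodes under 100 UMIs, which hold free RNA, Lyz2 was at 907 and 725 CPM. The part of these transcripts in the differences described next was not tested, except where a value without the cells that held more of them is given.

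The comparison of the antibody with control IgG used 7775 genes with at least 30 UMIs over both libraries and UMIs in at least 10 of the 77 cells. On the scale of log2(CPM + 10), which understates the ratio of low genes, 69 genes (0.887%) were at least 2-fold higher with the antibody and 78 (1.00%) at least 2-fold lower, and the median over all 7775 genes was 0.02. Every count of list genes past 2-fold below is to be read beside these shares, and the lists were chosen with earlier results of these data known. Log2 ratios beside CPM values are of the CPM themselves, antibody over control IgG, with a 95% conditional binomial interval that covers counting error only and is too narrow where the UMIs lie in few cells.

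Acta2, Tagln, Tgfbi and Ccn2 were among the 12 genes furthest lower with the antibody. Acta2 was at 346 CPM (314 to 379) with control IgG and 63.7 CPM (49.0 to 81.5) with the antibody, at -2.44 (-2.84 to -2.06) on the log2 scale. It was detected in 33 of 47 and 17 of 30 cells, its median over cells was 127 and 32 CPM, and the ranges of the cells overlapped. Without the 13 contractile cells, which are defined in part by Acta2 itself, it was at 94.1 and 39.0 CPM. When only cells with fewer than 3 UMIs of other cells were kept, which left 4 and 7 cells, the direction turned, with 17.1 CPM against 58.3 CPM. Tagln was at 242 and 41.5 CPM (-2.55, -3.05 to -2.07), but 13 control IgG cells held all its UMIs, and 1 cell held 90.2% of those with the antibody.

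Tgfbi, an extracellular matrix protein named for its induction by TGFβ, was at 417 CPM with control IgG and 98.1 CPM with the antibody, at -2.09 (-2.41 to -1.77) on the log2 scale, and its median over cells was 169 and 41.9 CPM. Free RNA held it at 237 and 314 CPM, that is, higher in the antibody library. Among cells that were not contractile it was at 247 and 98.6 CPM. Ccn2, connective tissue growth factor, was at 80.3 and 14.2 CPM (-2.50, -3.42 to -1.69), from 13 and 2 cells. Outside the contractile cells Ccn2 was at 12.5 and 11.9 CPM.

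Cthrc1, Enpp1, Mmp2 and Tnc were also among the 12 lowest. Cthrc1, a secreted protein of activated fibroblasts, had 74 UMIs in 13 control IgG cells and 1 UMI with the antibody, at -5.82 (-11.14 to -3.30) on the log2 scale. Its value on log2(CPM + 10) was -2.61, and -0.69 among cells with at least 300 CPM of the selecting genes. Enpp1, a pyrophosphate-producing ectoenzyme, had 84 UMIs in 21 cells against 3 UMIs in 1 cell (-4.42, -6.72 to -2.82). Mmp2, gelatinase A, had 118 UMIs in 24 cells against 9 UMIs in 3 cells (-3.32, -4.49 to -2.35), and among cells that were not contractile it was at 46.5 and 1.1 CPM. Tnc, tenascin C, had 46 UMIs in 16 cells against 2 in 2 cells (-4.13, -7.22 to -2.20). Of its control IgG UMIs, 26 lay in 5 cells with 2 to 5 selecting UMIs, and 1 cell held 39.1%. On log2(CPM + 10) Tnc was at -1.92, and at -0.97 without the cells whose share of other-cell UMIs was above the median.

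The other 4 of the 12 lowest were Pdzd2, Srgn, A2m and Kdr. Kdr, the VEGF receptor VEGFR2, was at 75.6 CPM in 27 control IgG cells and 15.2 CPM in 10 antibody cells (-2.32, -3.21 to -1.53). Without the cells whose share of other-cell UMIs was above the median it was under 2-fold (-0.76 on log2(CPM + 10)), but Kdr is itself counted among those UMIs. Endothelial Pecam1 had 1 UMI in each library and Cdh5 had 1 and 0. Srgn, the leukocyte proteoglycan serglycin, was at 61.0 and 10.1 CPM and at 1199 and 815 CPM in free RNA, and its value moved from -1.82 to -0.15 when free RNA was subtracted. A2m came from 8 and 2 cells, and was 0.25 on log2(CPM + 10) without the contractile cells. Pdzd2 was at 61.7 and 9.1 CPM.

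**Figure D3:**
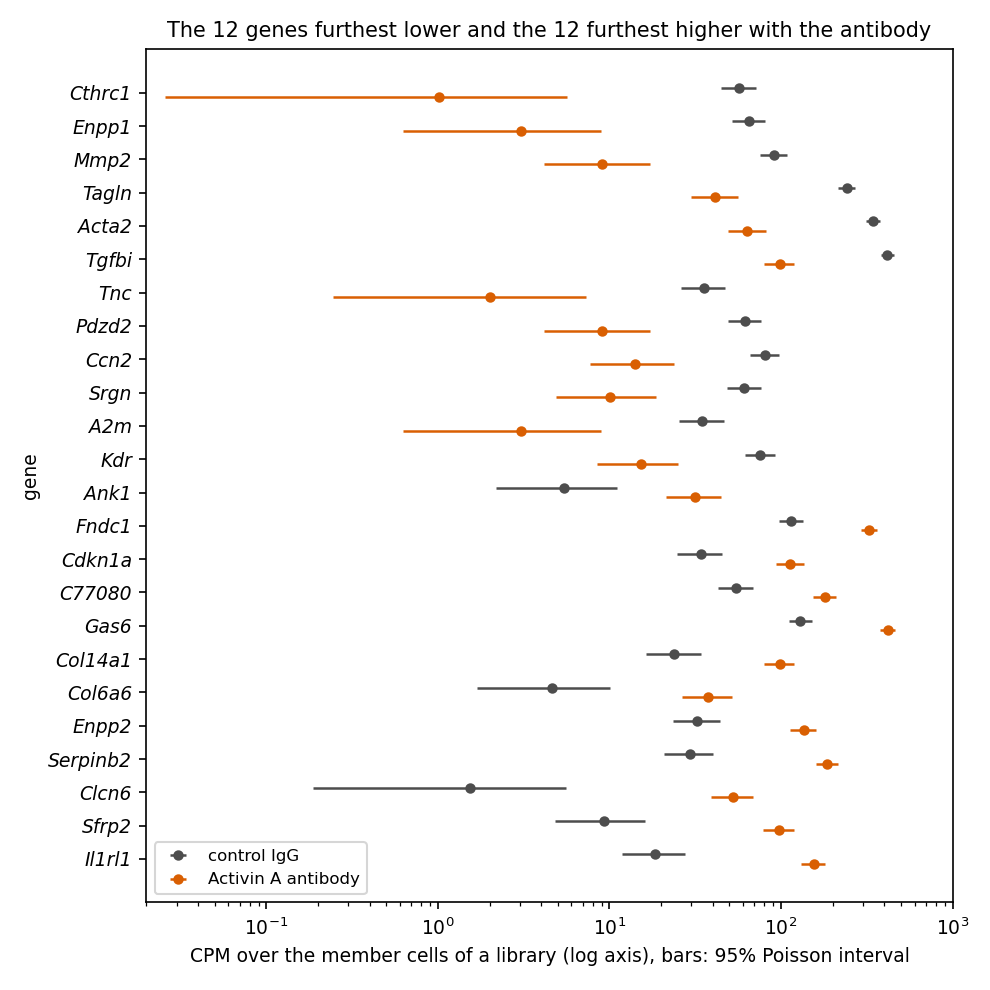
CPM over the mesothelial-like cells of each library (x axis, log scale; gray control IgG, orange antibody; bars are 95% Poisson intervals of counting error) for the 12 genes furthest lower and the 12 furthest higher with the antibody. Acta2 and Tgfbi lie at 346 and 417 CPM with control IgG and at 63.7 and 98.1 CPM with the antibody, while Sfrp2 and Il1rl1 lie at 9.26 and 18.5 CPM with control IgG and at 97.1 and 155 CPM with the antibody.

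Among 20 contractile apparatus genes, 14 could be compared. Of these 0 were 2-fold higher and 3, Acta2, Tagln and Tpm1, at least 2-fold lower; 12 lay below 0 and the median was -0.52, against 0.02 over all genes. Tpm1, tropomyosin 1, was at 337 and 163 CPM and detected in all 77 cells. Its value on log2(CPM + 10), -1.01, was under 2-fold in 7 of 12 other settings, with -0.70 without the contractile cells. Tagln was at -0.57 without the contractile cells, which its own counts help to define, and at 0.22 without the cells whose share of other-cell UMIs was above the median. Tpm2 was at 432 and 226 CPM and Cald1, caldesmon, at 803 and 452 CPM. Des, the intermediate filament desmin, lay on the other side, at 19.3 CPM with control IgG and 42.5 CPM with the antibody.

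Inhba, which encodes the βA subunit that forms Activin A, had 14 UMIs in 7 control IgG cells (10.8 CPM) and 10 UMIs in 6 antibody cells (10.1 CPM), a log2 ratio of -0.10 (-1.43 to 1.18). With so few UMIs the direction was not fixed: without the contractile cells Inhba was at 5.67 and 10.8 CPM, and in cells at 300 CPM or more of the selecting genes at 4.63 and 11.5 CPM. In contractile fibroblasts Inhba was at 90.5 and 37.3 CPM and in cancer-like cells at 72.9 and 108 CPM. Fst, follistatin, which binds and blocks activins, was at 10.0 and 11.1 CPM. The type II TGFβ receptor Tgfbr2 was at 175 and 169 CPM. Acvr1, a type I receptor used mainly by BMP ligands, was at 76.4 and 75.8 CPM. The coreceptor betaglycan, Tgfbr3, was at 141 CPM with control IgG and 271 CPM with the antibody. Fstl1, a follistatin-like secreted protein, was at 950 and 589 CPM. Of 15 genes of this list that could be compared, 0 were 2-fold higher and 1 was 2-fold lower: Ltbp2, a latent TGFβ-binding family member of elastic fibers, at 115 and 36.4 CPM (-1.66, -2.23 to -1.13). The median of the list was -0.16.

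Of 20 SMAD genes and SMAD2/3 targets, 15 lay below 0 with a median of -0.21. This median was 0.02 in cells with at least 4 selecting UMIs. Among the 20 genes, 3 were at least 2-fold lower and 0 higher. These were Ccn2 and Tgfbi, described above, and Pmepa1, which encodes a feedback inhibitor of TGFβ signaling. Pmepa1 was at 305 CPM with control IgG and 133 CPM with the antibody (-1.19, -1.49 to -0.90), and its log2(CPM + 10) value was -0.65 without the contractile cells. The crosslinking enzymes Lox and Loxl2 were at 227 against 118 CPM and 208 against 105 CPM. Id3, a target of BMP signaling, was at 424 and 490 CPM.

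Of 16 interstitial collagens and small proteoglycans compared, 13 lay below 0, with a median of -0.47. Past 2-fold, 1 was lower with the antibody and 1 higher. In the 4 and 7 cells with fewer than 3 UMIs of other cells, the median turned to 0.23. Bgn, biglycan, was detected in all 77 cells and was at 1880 CPM (1807 to 1957) with control IgG and 719 CPM (667 to 774) with the antibody, at -1.39 (-1.51 to -1.27) on the log2 scale. Its median over cells was 1725 and 667 CPM, the cell ranges overlapped, and among cells that were not contractile it was at 1683 and 663 CPM. Col1a1 was at 2451 and 1618 CPM and Col3a1 at 4641 and 3362 CPM. Dcn went the other way, at 3906 and 4740 CPM. Col14a1, a fibril-associated collagen, was at 23.9 CPM with control IgG and 98.1 CPM with the antibody (2.04, 1.44 to 2.67), in 11 and 17 cells.

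Of 13 matricellular and elastic fiber genes, Tnc, Thbs1, Ccn2 and Fbln2 were at least 2-fold lower and 0 were higher (median -0.42). This median was -0.05 and -0.07 in cells with at least 4 and at least 6 selecting UMIs. Thbs1, thrombospondin 1, a protein known to activate latent TGFβ, was at 471 and 201 CPM in sum, but its median over cells was 96.1 and 75.9 CPM. Fbln2, fibulin 2, was at 681 and 332 CPM. Both were under 2-fold without the contractile cells, when log2(CPM + 10) was -0.52 for Thbs1. Of 17 matrix proteases and inhibitors, Mmp2 was 2-fold lower and Adamts1, Adamts5 and Serpinb2 were 2-fold higher. Adamts5, an aggrecanase, was at 23.9 CPM in 12 cells and 66.7 CPM in 16 cells. Timp1, a metalloproteinase inhibitor, was at 3033 and 1544 CPM. The 15 basement membrane genes had 0 past 2-fold in either direction and a median of -0.07.

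In the list for mesothelial-to-mesenchymal transition, 13 genes were compared. Mmp2, Tnc and Itga5 were at least 2-fold lower with the antibody and 0 were higher, with a median of -0.19. Itga5, the fibronectin receptor subunit, was at 165 and 67.8 CPM, and was under 2-fold lower without the contractile cells. Vim, vimentin, was at 3240 and 2477 CPM and Fn1, fibronectin, at 4264 and 3853 CPM. Snai1, a transcription factor that represses epithelial genes, was at 61.0 and 33.4 CPM, while Cdh11, a mesenchymal cadherin, was at 367 and 449 CPM. The Tnc and Mmp2 counts also enter other lists given here.

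No mesothelial identity or junction gene that could be compared was past 2-fold. Over all 7775 genes, 0.887% were at least 2-fold higher and 1.00% lower, so a count of 0 in lists of this size is near those shares. Among 18 mesothelial identity genes that could be compared, 0 were 2-fold higher or lower and the median was 0.09. Nkain4 was at 320 and 559 CPM, and Krt8 at 639 and 401 CPM. Among 12 junction and polarity genes the count was also 0, with a median of 0.09. Cdh2, N-cadherin, which mesothelium uses at its junctions, had 110 UMIs in 23 cells and 89 UMIs in 19 cells, while Cdh1 had 2 UMIs in each library, Epcam had 0 and 1, and Ocln and Crb3 had 0. Among 15 coelomic transcription factors, Gata6 was at 205 and 189 CPM, and Klf4 was the gene past 2-fold, at 129 and 274 CPM. Its value on log2(CPM + 10), 1.03, was under 2-fold in 7 of 12 other settings, with 0.70 without the contractile cells and 0.96 without the cell with most of its UMIs.

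**Figure D4:**
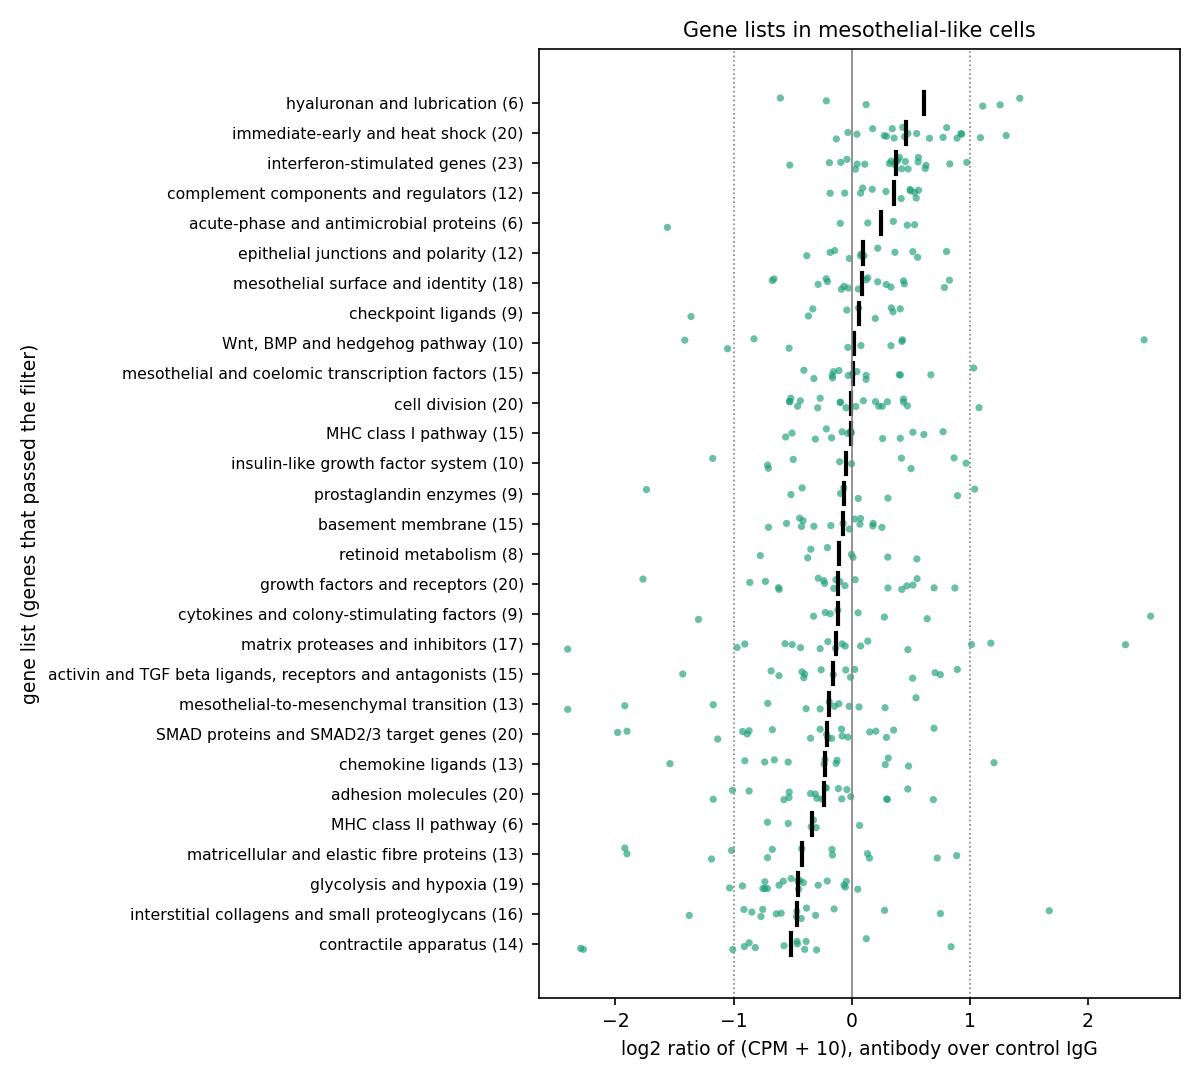
Log2 ratio of (CPM + 10), antibody over control IgG (x axis; dotted lines at 2-fold), of each gene that passed the count filter in 29 gene lists (rows, number of genes in parentheses), with a bar at the median of each list. Contractile genes, collagens and glycolysis genes lie mostly below 0 (medians -0.52, -0.47 and -0.46) and hyaluronan, immediate-early and interferon-stimulated genes mostly above it (0.62, 0.46 and 0.38); all medians lie inside 2-fold.

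Several of the 12 genes furthest higher with the antibody rested on few cells. Fndc1, a fibronectin type III protein, had 9.40% and 9.91% of its UMIs in the highest cell, and was at 115 CPM in 31 cells with control IgG and 327 CPM in 23 cells with the antibody (1.51, 1.22 to 1.80), with medians over cells of 58.7 and 261 CPM. Sfrp2, a secreted Wnt modulator, was at 9.26 CPM in 7 cells and 97.1 CPM in 16 cells (3.39, 2.52 to 4.39), and 1 antibody cell held 45.8% of its UMIs. Il1rl1, the IL-33 receptor ST2, was at 18.5 and 155 CPM (3.06, 2.44 to 3.75), from 11 and 9 cells, with 45.8% of the antibody UMIs in 1 cell. In cells at 300 CPM or more of the selecting genes, the value of Il1rl1 on log2(CPM + 10) was 0.59, compared with 2.53 over all cells.

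Gas6, the ligand of the AXL and MERTK receptors, was at 130 CPM with control IgG and 419 CPM with the antibody (1.69, 1.43 to 1.96), yet its medians over cells were 77.2 and 75.9 CPM, and 1 antibody cell held 33.6% of its UMIs. Cdkn1a, the cell cycle inhibitor p21, had 44 UMIs in 11 cells and 112 UMIs in 18 cells (1.74, 1.22 to 2.28). Col6a6 had 6 UMIs in 4 cells and 37 in 12 cells. Serpinb2, plasminogen activator inhibitor 2, was at 29.3 and 186 CPM from 6 and 7 cells, and Enpp2, autotaxin, at 32.4 and 135 CPM from 8 and 12 cells. The highest antibody cell held 47.3% of the UMIs for Serpinb2 and 42.5% for Enpp2. Enpp2 was 0.56 on log2(CPM + 10) in cells at 300 CPM or more of the selecting genes and 0.83 in cells with at least 6 selecting UMIs. For Clcn6, C77080 and Ank1, 1 antibody cell held 82.7%, 70.2% and 77.4% of the UMIs.

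**Figure D5:**
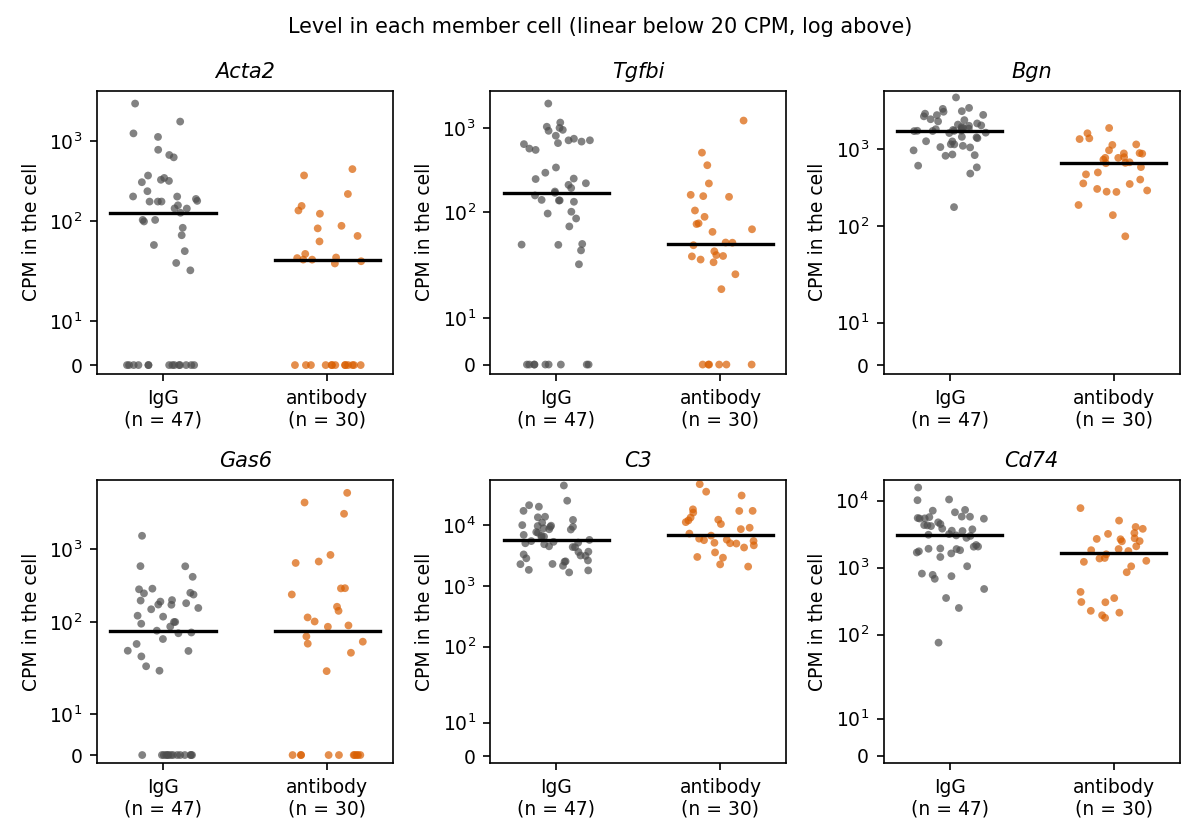
Level of Acta2, Tgfbi, Bgn, Gas6, C3 and Cd74 in each mesothelial-like cell (y axis, CPM in the cell, linear below 20 and log above; black bars are medians; 47 control IgG cells in gray and 30 antibody cells in orange). The bulk of the Bgn values is lower with the antibody (medians 1725 and 667 CPM), whereas the Gas6 medians are 77.2 and 75.9 CPM and its sum is carried by a few high cells.

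Hyaluronan and lubricant genes, products of the serosal surface, had 3 of 6 genes at least 2-fold higher with the antibody and 0 lower, beside 0.887% and 1.00% of all 7775 genes. Their median of 0.62 lay between 0.24 and 1.27 in other settings. Has1, a hyaluronan synthase, was at 57.1 CPM in 20 cells and 170 CPM in 17 cells (1.57, 1.17 to 1.99). Its value on log2(CPM + 10) was 0.24 among cells with 300 CPM or more of the selecting genes. Prg4, lubricin, was at 55.6 and 147 CPM, from 10 and 9 cells, with 54.2% of the control IgG UMIs in 1 cell. Tnfaip6, TSG-6, which modifies hyaluronan, was at 29.3 and 74.8 CPM.

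Complement was high in both libraries. C3 was at 6594 CPM (6455 to 6736) with control IgG and 9634 CPM (9442 to 9830) with the antibody, with medians over cells of 5719 and 6996 CPM, and Cfb, factor B of the alternative pathway, at 685 and 971 CPM. Of 12 complement genes, 0 were past 2-fold and 10 lay above 0 (median 0.35). Of 23 interferon-stimulated genes, 0 were past 2-fold and 19 lay above 0 (median 0.38). In the 4 and 7 cells with fewer than 3 UMIs of other cells, the complement median was -0.71 and the interferon-stimulated median -0.24. Ifitm3 was at 2756 and 3440 CPM and Gbp2, a guanylate-binding protein, at 241 and 436 CPM. Of 6 acute-phase and antimicrobial genes, 1 was past 2-fold: Hp, haptoglobin, with 60 UMIs in 9 cells against 9 in 4. Saa3, a serum amyloid, was at 3049 and 2851 CPM.

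All 77 cells had UMIs of Cd74, the invariant chain of MHC class II, at 3129 CPM with control IgG and 1906 CPM with the antibody, at -0.72 (-0.79 to -0.64) on the log2 scale. Free RNA held Cd74 at 2487 and 1349 CPM and immune cells at 5252 and 2784 CPM, so it was lower with the antibody in these as well. In cancer-like cells, which were deeper than mesothelial-like cells, Cd74 was at 88.7 and 26.0 CPM. How much of the Cd74 in mesothelial-like cells came from free RNA was not tested. H2-Ab1, a class II chain, was at 678 and 533 CPM. Of 6 class II genes 0 were past 2-fold (median -0.33), as were 0 of 15 class I genes (median -0.01). Cd274, which encodes PD-L1, had 16 UMIs in 12 cells (12.3 CPM) and 18 UMIs in 13 cells (18.2 CPM), a log2 ratio of 0.56 (-0.49 to 1.63). Of 9 checkpoint ligand genes, Nt5e, the CD73 ectoenzyme, was 2-fold lower, at 49.4 and 13.1 CPM.

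Among 13 chemokine genes, Ccl2 was 2-fold higher and Ccl5 2-fold lower. Ccl2, a monocyte attractant, was at 793 CPM with control IgG and 1841 CPM with the antibody (1.21, 1.10 to 1.33), with medians over cells of 203 and 660 CPM. Ccl5 was at 89.5 and 24.3 CPM, with 40.5% of the control IgG UMIs in 1 cell, and at 2736 and 2787 CPM in free RNA; it was 0.00 on log2(CPM + 10) when free RNA was subtracted. Cxcl10 was at 420 and 286 CPM. Il33, an alarmin of lining cells, was at 164 and 60.7 CPM, with 32.1% of the control IgG UMIs in 1 cell, and was 0.05 on log2(CPM + 10) without the contractile cells. Ptgs2, the cyclooxygenase COX-2, was at 104 and 24.3 CPM (-2.10, -2.79 to -1.47), and Ptges, the prostaglandin E synthase, at 17.0 and 45.5 CPM, while Ptgis was at 1353 and 1407 CPM.

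Of 20 immediate-early and heat shock genes, 18 lay above 0 (median 0.46), and Fos and Hspa1a were 2-fold higher, at 226 and 492 CPM and at 87.2 and 231 CPM. Of 19 glycolysis and hypoxia genes, 18 lay below 0 (median -0.46), with Slc2a1, the glucose transporter GLUT1, 2-fold lower at 72.5 and 30.3 CPM and Pgk1, phosphoglycerate kinase, at 997 and 605 CPM. Among 20 cell division genes the median was -0.01, but it was -0.49 in cells at 300 CPM or more of the selecting genes, -0.37 in cells with no Ptprc UMI and -0.33 without the deepest cells. Mki67, the proliferation gene, was detected in 14 of 47 and 9 of 30 cells, and Pcna, at 73.3 and 166 CPM, was the gene past 2-fold. Of 20 adhesion genes, Ncam1 and Itga5 were 2-fold lower, Ncam1 at 710 and 348 CPM.

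The named genes and those past 2-fold in the lists made 56 genes, and were recomputed in 12 other settings that kept at least 10 cells per library. In all 12, 8 of 32 lower genes and 9 of 24 higher genes were past 2-fold, and each of the others was under 2-fold or turned in at least 1 setting. Among these, Tpm1, Klf4, Fbln2, Adamts1 and Pappa were under 2-fold in 7 settings, Thbs1 and Ptges in 6, and Itga5, Ncam1, Pmepa1, Bmper and C77080 in 5. Without the contractile cells, Nt5e, Ncam1, Pappa, Adamts1, Prg4, Ptges and Fos were also under 2-fold.

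The same genes were read in fibroblasts of both libraries, separately by class because 39 of the 166 control IgG fibroblasts and 13 of the 206 antibody fibroblasts were contractile. Tgfbi was at 289 and 601 CPM in the less contractile fibroblasts and at 503 and 418 CPM in the contractile ones. Cthrc1 was at 196 and 261 CPM and at 419 and 458 CPM, and Mmp2 at 818 and 667 CPM and at 532 and 328 CPM, in the same order. Bgn was at 1842 and 1419 CPM in the less contractile fibroblasts and at 2612 and 1988 CPM in the contractile ones. Acta2, which with Tagln defines these classes, was at 15.2 and 40.04 CPM in the less contractile and at 2173 and 773 CPM in the contractile fibroblasts, and Tagln at 18.7 and 9.89 CPM and at 1893 and 450 CPM. Over all fibroblasts Acta2 was at 929 and 150 CPM and Tagln at 813 and 76.1 CPM, which joins the level within each class to the unequal share of contractile cells. Tnc was lower with the antibody in both classes, at 220 and 35.8 CPM and at 715 and 141 CPM, and so was Hp, at 169 and 14.1 CPM and at 47.1 and 2.67 CPM. All these cells come from the same libraries, and whether their differences differ from those of mesothelial-like cells was not tested.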

How the data were processed

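Raw UMI counts per gene and barcode were used as deposited by the authors, not normalized and over all barcodes. The submitters' processing notes name Cell Ranger 7.0.1 and mm10, while the file headers name Cell Ranger 4. The labels name another 10x chemistry and length of treatment than the study's methods. Their numbers of mice also differ from the number that the study gives for its single-cell experiment. The labels are followed. Barcodes were kept as cells from 1000 to 8500 genes and from 1000 to 100000 UMIs, with no more than 10% of UMIs mitochondrial. UMIs of a class were summed per library and divided by all UMIs of its cells (Python 3.11.15, numpy 2.4.6, pandas 2.3.3, scipy 1.17.1). With 1 library per group no test was possible; intervals are exact 95% Poisson, Clopper-Pearson or conditional binomial. The named genes were the 12 highest and 12 lowest log2(CPM + 10) ratios whose interval left out 0, leaving out mitochondrial, ribosomal and unnamed genes and the 7 genes of the rule, the 12 furthest between classes in both libraries, and genes of 42 lists (633 of 635 genes found). The members and lists were chosen with earlier results of these data known. The fold calculation was run on simulated pooled counts with known changes, after centering on the unchanged genes. These counts held no spread between cells, so the run does not bear on genes carried by few cells.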

Additional observations from a re-analysis of the deposited data

Results flagged for a closer look

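Outside the cells described above, 16 kept cells of the control IgG library and 4 of the antibody library held at least 2 UMIs of Msln, Upk3b and Lrrn4 but were left out because they held more than 1 UMI of Ptprc. They appear here because they carry the selecting transcripts but were not counted as mesothelial-like cells. As kept cells, they were part of the comparison with all other kept cells.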

How the results depend on the processing

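No paired analysis was possible because 1 pooled library stands for each group, and for the same reason no replicate could be left out. The log2 ratio of the shares of kept cells, -0.19, lay between -0.27 and 0.10 under the other limits on members, but was 1.27 (-0.71 to 3.48) with cells of 3 or more other-cell UMIs left out (4 and 7 cells remained) and 1.14 (0.15 to 2.17) with the cells above the median share of such UMIs left out (15 and 24 remained). Both settings leave out more control IgG cells by construction, since these held more other-cell UMIs, so neither is an estimate of the share. The counts of genes 2-fold higher and lower, 69 and 78, became 25 and 46 of 1025 genes in those 4 and 7 cells, 186 and 180 with a pseudocount of 1, 12 and 15 with one of 50, and 35 and 37 of 3516 genes with at least 100 UMIs. In the 4 and 7 cells Acta2 turned to 1.77, and the list medians of collagens to 0.23, matricellular genes to 0.0165, complement to -0.71 and interferon-stimulated genes to -0.24. Another 13 list medians moved by more than 0.3 there, and 13 did not. Acute-phase genes went from 0.24 to -1.32, class II genes from -0.33 to -1.99 and mesothelial-to-mesenchymal transition genes from -0.19 to 0.21. The cause was not tested. Of 56 named genes, 8 of 32 lower (Acta2, Enpp1, Mmp2, Tgfbi, Pdzd2, Bgn, Ltbp2, Hp) and 9 of 24 higher (Sfrp2, Serpinb2, Col14a1, Col6a6, Gas6, Cdkn1a, Fndc1, Adamts5, Hspa1a) were past 2-fold in all 12 settings that kept at least 10 cells per library. A2m (0.25) and Il33 (0.05) turned without the contractile cells, and Tagln (0.22) and Clec3b (-0.00) with the cells above the median share of other-cell UMIs left out. Some settings were chosen after seeing the data, namely at least 6 selecting UMIs, that median split, and leaving out the cell with most UMIs of a gene. All cells had 10 or more collagen UMIs, so the setting that left such cells out gave no value. With 77 cells, genes of few UMIs are limited by depth.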

Other observations

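Growth factor and morphogen genes were mostly inside 2-fold in mesothelial-like cells. Of 20 growth factor and receptor genes, Kdr was 2-fold lower and 0 were higher (median -0.12), and Vegfa was at 131 CPM with control IgG and 81.9 CPM with the antibody. Of 10 Wnt, BMP and hedgehog genes, Sfrp2 was 2-fold higher and Wnt11 and Bmper 2-fold lower (median 0.02), while Wnt4 was at 300 and 318 CPM. Bmper, a BMP-binding protein, was at 46.3 and 17.2 CPM and under 2-fold in 5 of 12 other settings. Of 10 insulin-like growth factor genes, Pappa was 2-fold lower (median -0.05), from 10 and 3 cells and in only 5 of 12 other settings, and of 8 retinoid genes 0 were past 2-fold (median -0.10), with Aldh1a2, which makes retinoic acid, at 171 and 147 CPM. Of 9 cytokine genes, Il1rl1 was 2-fold higher and Il33 2-fold lower (median -0.12), and of 9 prostaglandin genes 1 was 2-fold higher and 1 lower (median -0.07, from -0.46 to 0.41 in other settings).

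The remaining lists for other cells had the following sums with control IgG and with the antibody. Fibroblast genes were at 14701 and 13133 CPM, led by Dcn in UMIs, and of 7 compared Clec3b was 2-fold higher. In the mural list Rgs5 and Abcc9 were at 0, and the cancer-like sum was nearly all Lgals7, with Igf2bp1 and Lin28b at 0. Ovarian genes were at 88.0 and 109 CPM, led by Star, with Pax8, Foxl2, Lhx9 and Amh at 0. B cell genes were at 3.09 and 1.01 CPM and erythroid genes at 0, and the adipocyte sum was led by Fabp4, with Adipoq, Plin1 and Lep at 0.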
